A study of Mus musculus with 12 samples.

Results

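The genes of MHC class II antigen presentation were followed across 2 sorted myeloid cell types of the hypoxic mouse lung, with and without a deletion of Hif1a. They were chosen by symbol and comprise H2-Aa, H2-Ab1, H2-Eb1 and H2-Eb2, Cd74, H2-DMa, H2-DMb1 and H2-DMb2, H2-Oa and Ciita. These are 10 of the 26608 gene rows of the count files, and all 10 were among the 14254 genes that passed the filter on low counts, although H2-Eb2, H2-Oa and H2-DMb2 had no reads in at least 1 library. Of the chosen genes 8 lie in the MHC region of chromosome 17, Cd74 lies on chromosome 18 and Ciita on chromosome 16.

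Interstitial macrophages (IM), which live in the lung tissue around vessels and airways, and nonclassical monocytes (NCM), a blood cell that crawls along vessel walls, were each sorted from mice on the C57Bl/6 background. Every animal had spent 3 weeks in hypoxia and had received SU5416, a blocker of VEGF receptors, once a week, so no group without this exposure was compared. In the deleted groups a Cre recombinase under Cx3cr1, a chemokine receptor gene of monocytes and macrophages, was combined with Hif1a deletion, whereas the control groups carried floxed Hif1a without Cre. The 12 libraries, of about 250 cells, form 4 groups of 3: IM deleted (IM649, IM650, IM661), IM control (IM648, IM659, IM660), NCM deleted (NCM649, NCM650, NCM661) and NCM control (NCM648, NCM657, NCM659). Cre was present in the deleted animals alone, so the driver allele and the loss of Hif1a cannot be told apart. No label states that the numbers are separate animals, and the p-values below therefore measure the spread between libraries, which may be technical.

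Class II molecules are pairs of an alpha and a beta chain that carry peptides from endocytosed protein to the cell surface, where CD4+ T cells read them. The chains assemble on the invariant chain, the product of Cd74, which blocks the groove until endosomal proteases digest it. H2-DM then exchanges the remaining fragment for peptide, and H2-DO, made of the H2-Oa and H2-Ob products, restrains H2-DM. Ciita encodes the master coactivator of the class II promoters, which binds no DNA itself but docks on factors bound to conserved boxes, RFX on the X box and NF-Y on the Y box. In myeloid cells class II is known as a mark of dendritic cells and of part of the macrophages.

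The promoter boxes are shown because Ciita is known to act through factors bound to them. Promoter windows of 300 bases (250 before and 50 after the annotated start, RefSeq, build GRCm38.p6) were found for 7 of the 10 genes. H2-Ab1, Cd74 and Ciita had no entry. Each window was searched on both strands for the X box core ACNGATG and the Y box GATTGG. A pair was counted where both lay on the strand of the gene and the Y box began 12 to 40 bases after the start of the X core. The stretches below run 5′ to 3′ on the strand of the gene, with the X core (first) and the Y box (second) in capitals, which do not overlap.
H2-Eb1: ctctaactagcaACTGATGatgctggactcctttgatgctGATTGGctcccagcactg
H2-Eb2: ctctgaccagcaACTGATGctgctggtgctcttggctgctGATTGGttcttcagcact
H2-DMb1: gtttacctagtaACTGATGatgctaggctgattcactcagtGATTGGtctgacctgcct
H2-DMb2: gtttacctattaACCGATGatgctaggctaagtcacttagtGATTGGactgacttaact
H2-Aa: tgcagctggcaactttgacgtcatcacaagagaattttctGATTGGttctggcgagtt

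The first 4 lie on the plus strand at chr17:34305767-34305824 (H2-Eb1), chr17:34325534-34325591 (H2-Eb2), chr17:34153088-34153146 (H2-DMb1) and chr17:34145117-34145175 (H2-DMb2). The stretch of H2-Aa lies on the minus strand at chr17:34287855-34287912 and, of the searched letters, holds the Y box alone, in capitals. An X box that departs from the searched core would not be found, so its absence is not shown. The pair was found for 4 of the 7 genes with a window and not for H2-Aa, H2-Oa or H2-DMa. The windows of H2-Aa and H2-Oa hold 1 X core and 1 Y box each that do not form such a pair, and neither of the 2 windows of H2-DMa holds an X core. The X core starts 28 bases before the Y box in H2-Eb1 and H2-Eb2, and 29 bases before it in H2-DMb1 and H2-DMb2. Such a pair stands in 11 of 32851 promoter windows (0.0335%), while the X core alone was found in 9.85% and the Y box in 16.1% of them. These are matches of letters, and H2-Eb2 and H2-DMb2 carry the pair although they were among the genes with the fewest reads. H2-DMb1 and H2-DMb2 resemble each other in these letters and also in their transcripts.

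The libraries held between 5332600 and 14099509 reads counted to genes. The IM control libraries were the deepest, at 13333039 or more, and had the lowest share of reads outside exons (38.5 to 44.2%), against 59.2 to 69.8% in IM deleted, 55.1 to 72.7% in NCM deleted and 58.1 to 66.8% in NCM control libraries. Hif1a itself stood at 192, 204 and 200.01 CPM in IM deleted and 230.7, 212 and 243 CPM in IM control libraries, and at 154, 212 and 150.3 CPM in NCM deleted and 246, 221 and 207 CPM in NCM control libraries. CPM are counts scaled to a common library size with TMM factors, and counts per gene do not show which exons are lost. The sort matched its labels in rank, since the 12 interstitial macrophage markers summed to 10575 to 12847 CPM in IM deleted and 15946 to 16901 CPM in IM control, against 813 to 1950.2 CPM in NCM deleted and 3268 to 3811 CPM in NCM control. The 12 nonclassical monocyte markers summed to 3917 to 8233 CPM in NCM deleted and 9235 to 15095 CPM in NCM control, against 1458 to 1895 CPM in IM deleted and 1901 to 2295 CPM in IM control.

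Class II genes were abundant in interstitial macrophages and far lower in nonclassical monocytes. The 10 genes together reached 5871, 5451 and 12180.0 CPM in IM deleted (IM649, IM650 and IM661), and 15003, 12724 and 16976 CPM in IM control (IM648, IM659 and IM660). In NCM deleted they summed to 703, 854 and 1179 CPM, and in NCM control to 798, 2598 and 1659 CPM. All IM libraries therefore lay above all NCM libraries. Expressed as a share of gene counts, class II transcripts made up 0.588 to 0.994% of IM deleted and 1.25 to 1.59% of IM control libraries, and at most 0.119% of NCM deleted and 0.247% of NCM control libraries. In sorted bulk samples, fewer cells that express a gene and less RNA per cell cannot be told apart.

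**Figure D1:**
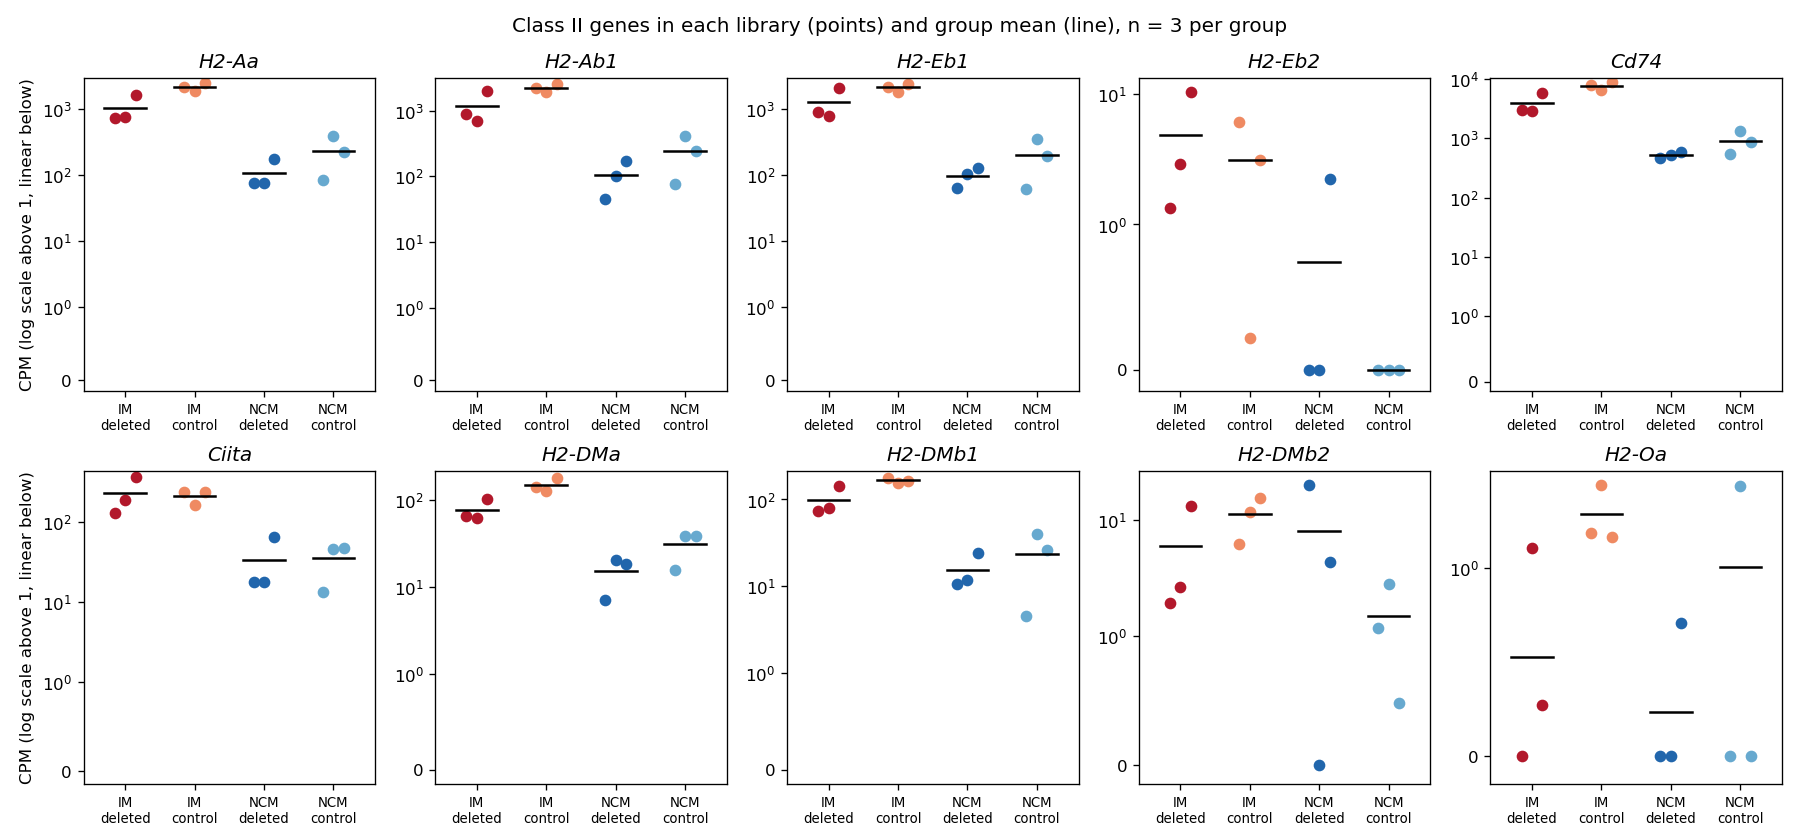
Level of each of the 10 class II genes in the 12 libraries, in CPM on a vertical axis that is logarithmic above 1 and linear below, with points for libraries and lines for group means (n = 3 per group). The IM libraries lie above the NCM libraries for the alpha and beta chains, Cd74, Ciita, H2-DMa and H2-DMb1, whereas H2-Eb2, H2-DMb2 and H2-Oa stay near 0 in several libraries.

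Per kilobase of annotated exon, the genes formed a steep order that was led by the invariant chain. In IM control, Cd74 averaged 4668 ± 666 CPM per kb (SD, n = 3), above H2-Eb1 (1103 ± 165), H2-Ab1 (858 ± 123) and H2-Aa (572 per kb). H2-DMb1 (98.3), H2-DMa (43.9 ± 8.40) and Ciita (22.005 ± 4.44 CPM per kb) stood well below the chains. Cd74 was between the 3rd and the 5th most abundant gene per kb in every IM library, among 22424 genes with a length, and between the 14th and the 57th in the NCM libraries. IM deleted kept Cd74 on top with 2332 ± 977 CPM per kb, but H2-DMa (22.5 ± 6.67) and Ciita (23.6 ± 12.6) no longer differed beyond their spread. In NCM deleted the order began with Cd74 (314 ± 38.3), H2-Eb1 (50.6 ± 16.7) and H2-Ab1 (40.9 ± 24.5 CPM per kb), and in NCM control with Cd74 (544 ± 231), H2-Eb1 (104 ± 73.9) and H2-Ab1 (95.04 ± 65.8 CPM per kb), where the last 2 overlapped within their spread in either group. Lengths cover all annotated exons, so a gene with long minor isoforms is understated.

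Comparison of the cell types within a genotype asks how far class II separates the macrophages from the monocytes. In edgeR's quasi-likelihood test over all 14254 genes, 7 of the 10 genes were higher in IM control than in NCM control at a Benjamini-Hochberg adjusted p under 0.05, and 2.81% of all genes were called higher. The same number, and the same 7 genes, were higher in IM deleted than in NCM deleted, where 3.22% of all genes were. They are the abundant chains H2-Aa, H2-Ab1 and H2-Eb1, Cd74, H2-DMa, H2-DMb1 and Ciita. Libraries of IM control lay above all those of NCM control for 9 of 10 genes (background 18.6%), and IM deleted above NCM deleted for 7 of 10 (background 16.0%). The median log2 fold change of the 10 genes was 3.00 between the control groups and 2.71 between the deleted groups, beside 0.06 and 0.14 over all genes.

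H2-Aa, the alpha chain of I-A, stood at 741, 769 and 1662 CPM in IM deleted against 75.4, 75.8 and 175 CPM in NCM deleted. In IM control it had 2172, 1872 and 2475 CPM, against 84.7, 390.0 and 227 CPM in NCM control. IM libraries were thus higher without overlap in either genotype, by a log2 fold change of 3.28 ± 0.52 (SE, adjusted p = 0.00161, edgeR) between the deleted and 3.22 ± 0.52 (adjusted p = 0.00166) between the control groups. H2-Ab1, its beta chain, had 883, 684 and 1965 CPM in IM deleted and 45.2, 99.2 and 171 CPM in NCM deleted, a log2 fold change of 3.48 ± 0.60 (adjusted p = 0.00302). Its IM control level of 2200.0, 1890.5 and 2522 CPM exceeded the 74.8, 413 and 244 CPM of NCM control by 3.17 ± 0.59 log2 units (adjusted p = 0.00471). H2-Eb1, the beta chain of I-E, followed them closely.

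H2-Eb1 counted 912, 784 and 2114 CPM in IM deleted against 63.4, 105 and 127 CPM in NCM deleted (log2 fold change 3.69 ± 0.55, adjusted p = 0.00117). In IM control it counted 2195, 1800.2 and 2437 CPM, against 62.4, 349 and 192 CPM in NCM control (3.41 ± 0.54, adjusted p = 0.00161). Its partner, the I-E alpha chain, is known to be defective in C57BL/6 mice, and the row H2-Ea-ps, looked up after the other values were seen, held 4, 13 and 63 reads in IM deleted, 22, 0 and 4 in IM control and none in the 6 NCM libraries. H2-Eb2, a second beta gene, held 11, 22 and 76 reads in IM deleted and 83, 3 and 39 in IM control. It had 0, 0 and 25 reads in NCM deleted and none in NCM control, so no fold is given for it. Of the E-type beta genes, H2-Eb1 was thus the abundant one in these libraries.

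Cd74, the invariant chain, was the most abundant of the 10 genes per kb. It reached 3061, 2879 and 5807 CPM in IM deleted against 464, 524 and 592 CPM in NCM deleted, and 7873, 6702 and 8936 CPM in IM control against 541, 1315 and 883 CPM in NCM control. Its log2 fold change was 2.89 ± 0.34 between the deleted groups (adjusted p = 0.000161) and 3.10 ± 0.35 between the control groups (adjusted p = 0.000133), the smallest p of the members in either comparison. Relative to the chains, however, Cd74 was unevenly spread over the monocytes. The ratio of Cd74 to H2-Ab1 counts was between 3.54 and 3.58 in the 3 IM control libraries and between 2.96 and 4.21 in IM deleted. It was between 3.47 and 10.3 in NCM deleted and between 3.19 and 7.24 in NCM control, with the high ends in NCM649 and NCM648, 2 of the monocyte libraries with the fewest class II reads.

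The peptide exchange factor H2-DM was likewise higher in macrophages. H2-DMa, its alpha chain, had 66.4, 62.1 and 104 CPM in IM deleted against 7.09, 20.6 and 18.5 CPM in NCM deleted (log2 fold change 2.33 ± 0.44, adjusted p = 0.00526). Its 143, 127 and 183 CPM in IM control stood against 15.8, 38.8 and 38.6 CPM in NCM control (2.28 ± 0.44, adjusted p = 0.00484). H2-DMb1, a beta chain, had 73.5, 79.9 and 145 CPM in IM deleted against 10.7, 11.8 and 24.0 CPM in NCM deleted (2.67 ± 0.58, adjusted p = 0.0127). In IM control it had 175, 155 and 165 CPM against 4.57, 39.999 and 26.1 CPM in NCM control (2.81 ± 0.58, adjusted p = 0.00734). The IM and NCM libraries did not overlap for either chain.

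H2-DMb2, the second DM beta gene, did not follow this pattern. It had 16, 20 and 98 reads in IM deleted, 85, 161 and 196 in IM control, 121, 0 and 49 in NCM deleted and 8, 23 and 4 in NCM control. The count in NCM649 exceeded those of IM649, IM650 and IM661 although that library was the shallowest. Its log2 fold change was -0.44 between the deleted groups (adjusted p = 0.928) and 2.90 between the control groups (adjusted p = 0.308), neither past the test. Of the stretches of 50 bases in its annotated transcripts, 25.9% also occur in other genes, and 22.7% of those of H2-DMb1 occur in H2-DMb2, so reads of the 2 beta genes can be set aside as ambiguous and their values are uncertain.

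H2-Oa, the alpha chain of the H2-DM inhibitor H2-DO, was close to the limit of detection. It had 0, 10 and 2 reads in IM deleted, 22, 42 and 19 in IM control, 0, 0 and 8 in NCM deleted and 0, 25 and 0 in NCM control. H2-Ob, its beta chain and not among the 10 genes, had 57, 26 and 88 reads in IM deleted, 156, 94 and 137 in IM control, 6, 0 and 87 in NCM deleted and 0, 73 and 15 in NCM control. Per kb of exon, H2-Oa averaged 0.376 ± 0.494 CPM in IM deleted and 1.47 ± 0.631 CPM in IM control, and H2-Ob 1.38 ± 0.793 CPM in IM deleted and 1.81 ± 0.456 CPM in IM control (SD, n = 3 each), so in IM control the chains did not differ beyond their spread. In the annotation H2-Oa overlaps the antisense gene BC051537 over 321 exon bases, H2-DMa overlaps Brd2 over 360 and Ciita overlaps Dexi over 329, all on the opposite strand. Since the strand setting of the counting is not given in the sources used here, reads of the partners cannot be told apart.

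Ciita, the coactivator, was also a macrophage gene here. It stood at 129.6, 186 and 360.1 CPM in IM deleted against 17.7, 17.9 and 64.4 CPM in NCM deleted (log2 fold change 2.75 ± 0.58, adjusted p = 0.0112). In IM control it stood at 232, 161 and 237 CPM, against 13.4, 45.6 and 47.5 CPM in NCM control (2.56 ± 0.57, adjusted p = 0.0126). Without the control monocyte library NCM648 this adjusted p was 0.05. Between the deleted groups it was 0.0689 without IM661, 0.0627 without NCM649 and 0.0700 without NCM650, and the calls of H2-DMb1 ended without the same libraries (0.0749, 0.0740 and 0.0766).

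**Figure D2:**
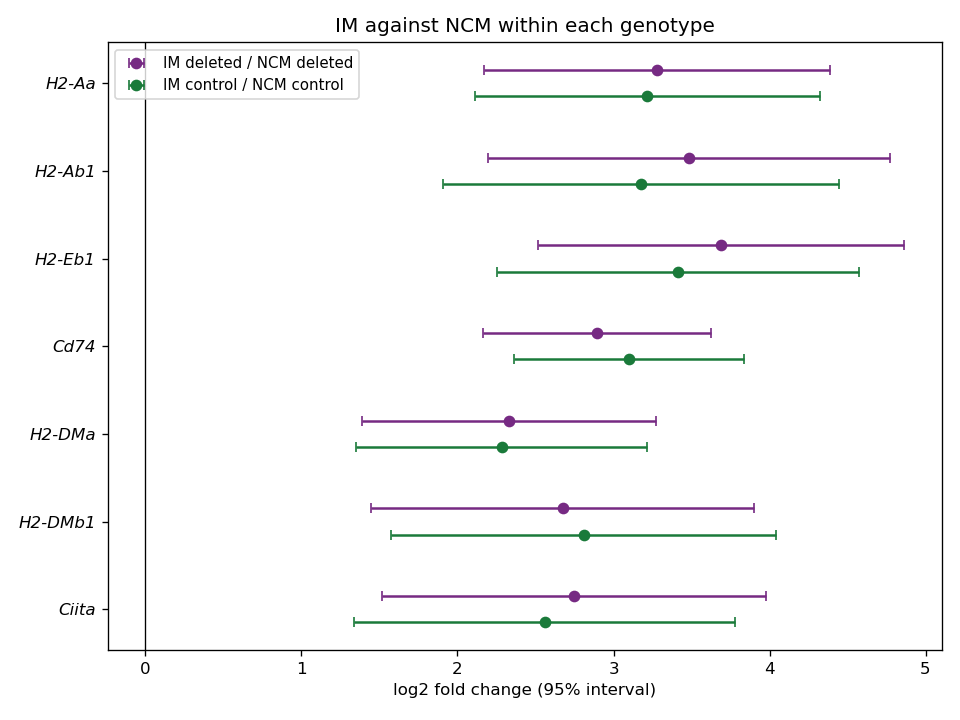
Log2 fold change of IM over NCM for the 7 genes called in both genotypes, with 95% intervals from the edgeR fit; purple marks IM deleted over NCM deleted and green IM control over NCM control. All intervals lie above 0, and the 2 genotypes overlap for every gene.

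The share of reads outside exons moved with this comparison in the control groups, where IM control (38.5 to 44.2%) and NCM control (58.1 to 66.8%) did not overlap. With that share as a covariate none of the 10 genes was called between the control groups, where 0.105% of all genes were called higher, and the log2 fold change of Cd74 was 2.35 (adjusted p = 0.0687) and that of Ciita 0.61 (adjusted p = 0.825). Between the deleted groups, whose shares overlapped, 7 of 10 were called with the same covariate, beside 4.80% of all genes called higher. IM libraries were sequenced in lanes 5 and 7 and NCM libraries in lanes 6 and 8, so lane and cell type cannot be told apart.

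Comparison of deleted with control macrophages asks how class II in these cells differs when Hif1a has been deleted. None of the 10 genes passed edgeR's adjusted p of 0.05 in IM, where 0.288% of all genes did. At an unadjusted p under 0.05 there were 3 (Cd74, H2-Aa and H2-DMa, all lower), beside 9.84% of all genes, and DESeq2 called 0 of the 7 genes to which it gave an adjusted p, beside 4.05% of all genes. The IM deleted libraries lay below all IM control libraries for 5 of 10 genes (Cd74, H2-Aa, H2-DMa, H2-DMb1 and H2-Oa), beside 13.4% of all genes. The median log2 fold change of the 10 genes was -0.91, with 8 below 0, and that of all genes was 0.07. The share of reads outside exons moved with this comparison without overlap, at 59.2 to 69.8% in IM deleted and 38.5 to 44.2% in IM control. With that share as a covariate edgeR called 0% of all genes, and the log2 fold changes were 0.85 for H2-Aa, 1.24 for H2-Ab1, 0.82 for H2-Eb1, 1.24 for H2-DMb1 and -0.13 for Cd74, beside a median of 0.52 over all genes.

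Cd74 averaged 3916 ± 1640.3 CPM in IM deleted and 7837 ± 1118 CPM in IM control (SD, n = 3 each). The highest deleted library, IM661, had 5807 CPM and the lowest control library, IM659, had 6702 CPM. The log2 fold change was -1.001 (95% interval -1.69 to -0.31, unadjusted p = 0.00716, adjusted p = 0.237, edgeR). Within lane 5, IM650 had 2879 CPM against 6702 and 8936 CPM in IM659 and IM660, and within lane 7, IM649 and IM661 had 3061 and 5807 CPM against 7873 CPM in IM648, so the deleted libraries were lower in each lane. When only the 6 IM libraries were fitted, Cd74 (adjusted p = 0.0447) and H2-DMa (adjusted p = 0.0341) were called lower, beside 2.96% of all genes called lower in that fit.

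H2-Aa averaged 1058 ± 524 CPM in IM deleted and 2173 ± 301 CPM in IM control, a log2 fold change of -1.04 (95% interval -2.06 to -0.01, adjusted p = 0.5). H2-Ab1 averaged 1177 ± 689 CPM in IM deleted and 2204 ± 316 CPM in IM control (-0.90, adjusted p = 0.697), and H2-Eb1 1269.9 ± 734 CPM in IM deleted and 2144 ± 321 CPM in IM control (-0.76, adjusted p = 0.743). With TMM factors the groups of these beta chains overlapped at IM661, whose 1965 and 2114 CPM lay within the control range. IM649 and IM650 lay below that range. IM661 had the lowest TMM factor (0.817, against 1.11 in IM649 and 1.08 in IM650). Without these factors the groups did not overlap. The highest IM deleted values were then 1603 CPM for H2-Ab1 and 1725 CPM for H2-Eb1, below the lowest IM control values of 1861 and 1772 CPM. H2-DMa averaged 77.5 ± 22.998 CPM in IM deleted and 151 ± 29.0 CPM in IM control (-0.96, adjusted p = 0.448), and H2-DMb1 99.3 ± 39.4 CPM in IM deleted and 165 ± 9.86 CPM in IM control (-0.73, adjusted p = 0.810). Without IM661 the log2 fold changes were -1.46 for Cd74 (adjusted p = 0.0860), -1.59 for H2-Aa, -1.55 for H2-Ab1 and -1.30 for H2-DMa, none past the test.

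Ciita did not share this position. It averaged 225 ± 120.2 CPM in IM deleted and 210 ± 42.3 CPM in IM control, a log2 fold change of 0.10 with a 95% interval of -1.05 to 1.25 (adjusted p = 1). Both the lowest and the highest macrophage library, IM649 and IM661, belonged to the deleted group. The interval spans changes in either direction, and without IM661 the value was -0.48.

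**Figure D3:**
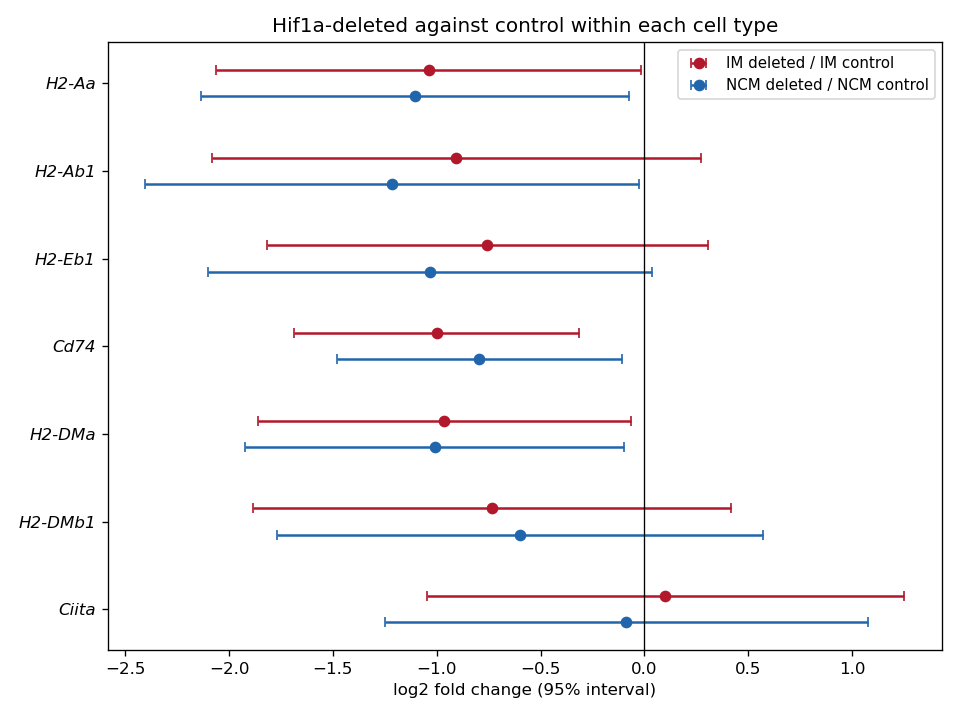
Log2 fold change of deleted over control libraries for the 7 class II genes with the most reads, with 95% intervals from the edgeR fit; red marks IM and blue NCM. Values lie between -1.21 and -0.60 for 6 genes and at 0.10 and -0.09 for Ciita, and none passed the adjusted test.

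The same comparison in nonclassical monocytes gave 0 of 10 genes at edgeR's adjusted p under 0.05, beside 0.421% of all genes. At an unadjusted p under 0.05 there were 5 (Cd74, H2-Aa, H2-Ab1, H2-DMa and, with reads in 1 library, H2-Eb2), beside 16.1% of all genes, and DESeq2 called 0 of the 9 with an adjusted p, beside 7.04%. No gene lay lower in all NCM deleted libraries than in all NCM control libraries, beside 11.4% of all genes. The median of the 10 log2 fold changes was -0.90, also with H2-Eb2 set to a floor of 3 reads over the control group, and that of all genes was -0.10. With the size factors of DESeq2 in the same test, the median of all genes moved to 0.04.

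Cd74 averaged 527 ± 64.4 CPM in NCM deleted and 913 ± 388 CPM in NCM control (log2 fold change -0.79, adjusted p = 0.237, edgeR). H2-Aa averaged 109 ± 57.4 CPM in NCM deleted and 234 ± 153 CPM in NCM control (-1.10, adjusted p = 0.277), and H2-Ab1 105 ± 63.0 CPM in NCM deleted and 244 ± 169 CPM in NCM control (-1.21, adjusted p = 0.3). In these genes the control library NCM648 (84.7 CPM of H2-Aa) lay among the deleted ones, and NCM657 (390.0 CPM) stood highest. H2-Eb1 had a log2 fold change of -1.03 (adjusted p = 0.329), H2-DMa of -1.01 (adjusted p = 0.260) and H2-DMb1 of -0.60 (adjusted p = 0.637). Ciita stood at -0.09 (95% interval -1.25 to 1.08, adjusted p = 0.960), and its sign turned under several other settings. H2-DMb2 had a positive value of 2.43 (adjusted p = 0.451), which came from NCM649 and NCM661.

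Single libraries set the size of the monocyte values. Without NCM657 the log2 fold change of Cd74 was -0.44 and that of H2-Aa -0.52, while without NCM648 they were -1.06 and -1.50 and without NCM661 -0.89 and -1.63, none past the test. Within lane 6, Cd74 had 524 CPM in NCM650 against 1315 and 883 CPM in NCM657 and NCM659, whereas within lane 8 it had 464 and 592 CPM in NCM649 and NCM661 against 541 CPM in NCM648. The deleted libraries were thus lower in the first lane and on both sides of the control in the second. NCM657 also had the highest counts of the dendritic cell genes Flt3 (508 reads, against 37, 20 and 80 in NCM deleted and 67 and 135 in the other control monocytes) and Cd209a (510 reads, against 1, 209 and 72 in NCM deleted and 33 and 84 in the other controls). It was the highest monocyte library in CPM for 3 of the 12 dendritic cell markers (these and Irf4), while NCM661 was so for 5 (Zbtb46, Clec9a, Dpp4, Kit and Cd24a). Their part in the class II levels was not tested.

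Whether the deletion effect differed between macrophages and monocytes was tested as the difference of the 2 effects, which share no library. edgeR called 0 of 10 genes at an adjusted p under 0.05 (0% of all genes) and 0 of 10 at an unadjusted p under 0.05 (8.92% of all genes), and DESeq2 called 0 of 10 (0.440% of all genes). The difference (IM effect minus NCM effect) was -0.21 log2 units for Cd74, with a 95% interval of -1.17 to 0.76, and 0.06 for H2-Aa, with an interval of -1.37 to 1.499. For Ciita it was 0.19 (-1.45 to 1.82). Differences of more than 1 log2 unit in either direction stay within these intervals for the chains and Ciita.

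Within a library, the reads of the class II chains relative to those of Ciita separated the macrophage groups. This ratio was computed after the values above had been seen and is given as a description. H2-Aa had 5.72, 4.14 and 4.62 reads per Ciita read in IM649, IM650 and IM661, against 9.37, 11.6 and 10.5 in IM648, IM659 and IM660. Cd74 had 15.5 to 23.6 reads per Ciita read in IM deleted against 34.0 to 41.6 in IM control, and H2-Ab1 had 3.68 to 6.81 in IM deleted against 9.49 to 11.7 in IM control. H2-DMa had 0.289 to 0.513 reads per Ciita read in IM deleted against 0.616 to 0.791 in IM control. H2-DMb1 had 0.402 to 0.567 in IM deleted against 0.698 to 0.966 in IM control, so none of these ratios overlapped between the groups. Cd74, H2-Aa, H2-DMa and H2-DMb1 already lay lower in IM deleted without overlap in CPM, whereas Ciita overlapped. Their separation by ratio therefore adds little to the CPM values. The share of all genes whose ratio to Ciita separates the groups was not computed. IM661, whose beta chains lay within the control range only with TMM factors, had the ratios of the other deleted libraries, since its Ciita level was the highest of all.

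In the monocytes the ratio of H2-Aa to Ciita was 4.27, 4.23 and 2.72 in NCM649, NCM650 and NCM661, against 6.31, 8.55 and 4.77 in NCM648, NCM657 and NCM659, without overlap. The ratios of Cd74 (9.20 to 29.2 in NCM deleted, 18.6 to 40.3 in NCM control) and of H2-Ab1 (2.56 to 5.53 in NCM deleted, 5.14 to 9.05 in NCM control) overlapped. The share of reads outside exons was also higher in IM deleted than in IM control without overlap, and Ciita shares exon bases with Dexi. The part of either in the ratio was not tested.

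**Figure D4:**
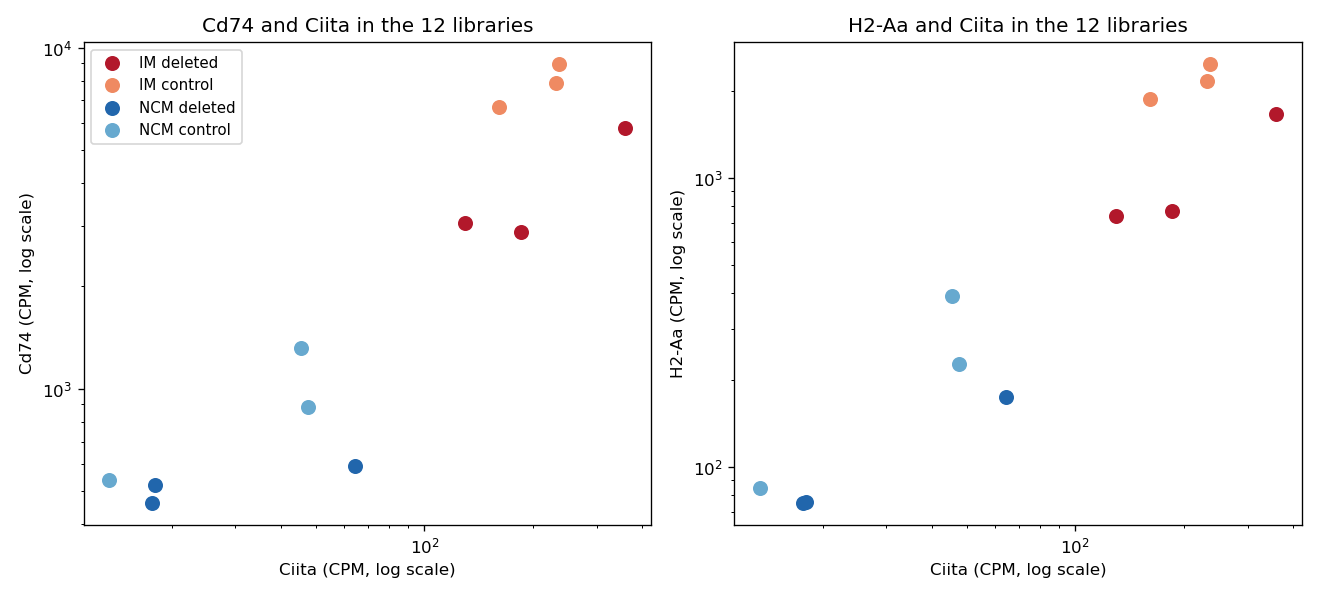
Cd74 (left) and H2-Aa (right) against Ciita in the 12 libraries, all in CPM on log scales, coloured by group. All IM deleted points lie lower on the vertical axes than the IM control points, and H2-Aa shows 4.14 to 5.72 reads per Ciita read in IM deleted against 9.37 to 11.6 in IM control.

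The members varied together from library to library within the groups. Deviations of log2 CPM from the group mean (prior count of 2) correlated across the 12 libraries at r = 0.97 between H2-Ab1 and H2-Eb1 and at r = 0.94 between H2-Aa and either beta chain. Cd74 correlated with the 3 chains at 0.91 to 0.97, and Ciita with their mean and Cd74 at 0.87. H2-DMb1 correlated with H2-Aa at 0.95, whereas H2-DMb2 had values of -0.34 to 0.33 with the other 9 genes. Points of 1 library share its depth, its cells and its scaling, so these are descriptions of the libraries. In IM deleted the high library was IM661, in NCM deleted NCM661 and in NCM control NCM657, while NCM648 was low.

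**Figure D5:**
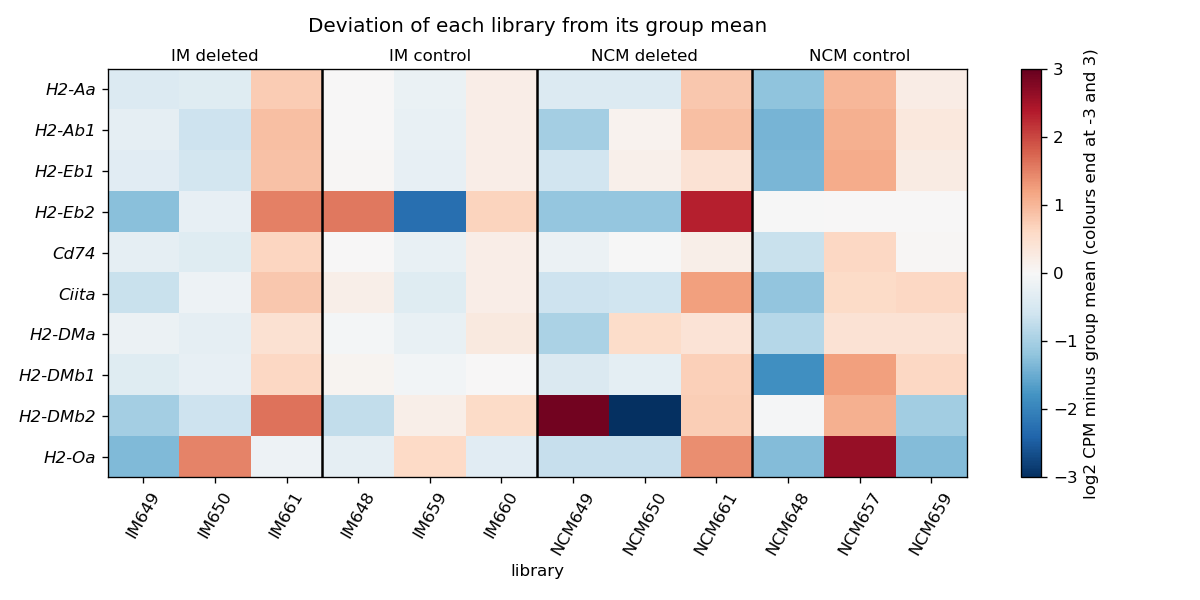
Deviation of log2 CPM of each class II gene from its group mean in the 12 libraries, with red above and blue below the mean and colours ending at -3 and 3. The abundant genes share 1 colour in columns such as IM661 (above) and NCM648 (below), but not in NCM650, where H2-Aa lay at -0.40 and H2-DMa at 0.55. H2-DMb2 departs from the abundant genes in NCM649 (2.89, above) and H2-Oa in IM650 (1.49, above).

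Among 6342 genes outside the list whose mean log2 CPM reached 4, the 8 whose deviations followed those of H2-Aa, H2-Ab1, H2-Eb1 and Cd74 most closely over the 12 libraries were Rpl23a (r = 0.97), Tnfsf9 (0.96), Eef2 (0.94), Suds3 (0.94), Axl (0.93), Vim (0.93), Fcgrt (0.92) and A130040M12Rik (0.91). Rpl23a encodes a ribosomal protein and Eef2 a translation elongation factor. Tnfsf9 encodes a ligand for a T cell costimulatory receptor, Axl a receptor tyrosine kinase, Vim the filament protein vimentin and Fcgrt the neonatal Fc receptor. Axl averaged 485 ± 212 CPM in IM deleted and 693 ± 102 CPM in IM control.

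Genes that cut and load the antigen were higher in macrophages together with the class II genes. Of 10 tested processing genes, 7 were higher in IM control than in NCM control (2.81% of all genes) and 7 in IM deleted than in NCM deleted (3.22%). Their medians were 1.40 and 1.58 log2 units, beside 0.06 and 0.14 over all genes. Cathepsin S (Ctss), which trims the invariant chain, averaged 1391 CPM in IM deleted against 446 CPM in NCM deleted (adjusted p = 0.00257), and 2801 CPM in IM control against 1086 CPM in NCM control (adjusted p = 0.00737). Cathepsin D (Ctsd) was 3.26-fold higher between the deleted and 5.90-fold higher between the control groups (adjusted p = 0.00824 and 0.000568). Ifi30, the lysosomal thiol reductase GILT, was 5.79-fold and 3.48-fold higher (adjusted p = 0.00216 and 0.0139). The others were cathepsins H, L and Z and legumain.

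With the deletion, edgeR called none of these 10 genes in IM or in NCM, although 10 of 10 values lay below 0 in IM (median -0.71) and 9 of 10 in NCM (median -0.95). There were 5 in IM and 6 in NCM at an unadjusted p under 0.05, beside 9.84% and 16.1% of all genes. DESeq2 called 1 and 4, beside 4.05% and 7.04% of all genes. Ctss had 1350, 1236 and 1588 CPM in IM deleted against 2699, 2356 and 3347 CPM in IM control (log2 fold change -1.01, adjusted p = 0.15). In NCM deleted it had 540.3, 539.8 and 257 CPM against 1308, 1027 and 922 CPM in NCM control (-1.28, adjusted p = 0.0514). The libraries did not overlap in either cell type, but neither value passed the test.

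The factors that act with or upstream of Ciita were mostly not called between the cell types. Of 16 genes, among them the RFX and NF-Y subunits and the interferon gamma pathway, edgeR called none higher in IM in either genotype. Ifngr1, a chain of the interferon gamma receptor, was lower in IM deleted than in NCM deleted (228 against 477 CPM, adjusted p = 0.0299; 1.35% of all genes were called lower) and lower in IM control than in NCM control (305 against 787 CPM, adjusted p = 0.00530; 4.67% of all genes). Jak2, a kinase of that receptor, was lower in IM control than in NCM control (75.7 against 167 CPM, adjusted p = 0.0263). At an unadjusted p under 0.05 there were 6 of 16 between the deleted and 2 of 16 between the control groups, and DESeq2 called 3 and 2. Over all genes DESeq2 called 1228 and 1768, while the share of all genes at that unadjusted p was not computed for the cell types.

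Among 8 genes of surface turnover and the interleukin 10 axis, Il10 and its receptor chain Il10rb were higher in IM in both genotypes. Over all genes 3.22% were called higher between the deleted and 2.81% between the control groups. The other receptor chain, Il10ra, was not called and averaged 347 CPM in IM deleted against 416 CPM in NCM deleted. In IM control it averaged 444 CPM against 791 CPM in NCM control. Il10, a cytokine known to lower surface class II, averaged 59.2 CPM in IM deleted against 1.74 CPM in NCM deleted (adjusted p = 0.000427), and 56.6 CPM in IM control against 10.6 CPM in NCM control (adjusted p = 0.0202). Cd83, which protects class II from ubiquitination, was higher in IM deleted than in NCM deleted (1749 against 532 CPM, adjusted p = 0.00746), and Stat3 was lower in IM control than in NCM control (226 against 456 CPM, adjusted p = 0.0204). Of 9 tested costimulation and adhesion genes, 5 were higher in IM deleted than in NCM deleted (Cd40, Cd86, Icam1, Icosl and Tnfsf9), beside 3.22% of all genes. In IM control 2 were higher than in NCM control (Icam1 and Icosl), beside 2.81% of all genes. The costimulatory ligand Cd86 averaged 359 CPM in IM deleted and 99.8 CPM in NCM deleted (adjusted p = 0.0239).

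MHC class I genes had medians near 0 between the cell types. Of 21 genes edgeR called none between the deleted groups (median -0.20). At an unadjusted p under 0.05 there were 6, again without a computed share over all genes, and DESeq2 called 2, beside 1228 over all genes. In IM control 3 were higher than in NCM control (median -0.08), beside 2.81% of all genes. They were the chaperones Calr, Canx and Pdia3 of the endoplasmic reticulum. B2m, the light chain of class I, averaged 467 CPM in IM deleted against 831 CPM in NCM deleted (adjusted p = 0.0770), and 914 CPM in IM control against 1425 CPM in NCM control (adjusted p = 0.148). With the deletion, edgeR called no gene of the class I list, with medians of -0.60 in IM and -0.37 in NCM. Unadjusted p-values under 0.05 numbered 8 in IM and 4 in NCM, beside 9.84% and 16.1% of all genes. DESeq2 called 4 and 1, beside 4.05% and 7.04% of all genes. The regulator, surface and costimulation lists had no called gene either in edgeR. They had 1, 0 and 1 in IM and 4, 4 and 1 in NCM at an unadjusted p under 0.05. DESeq2 called none in IM and 1 of each list in NCM, beside the same shares of all genes as for class I.

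Genes of macrophage subsets told little more. Of 9 such genes, Mrc1 was higher in IM in both genotypes and F13a1 was called higher in IM deleted than in NCM deleted (715 against 22.1 CPM, adjusted p = 0.0246). Over all genes 3.22% were called higher between the deleted and 2.81% between the control groups. In IM control F13a1 averaged 740 CPM against 94.4 CPM in NCM control, without overlap but not past the test (adjusted p = 0.114). edgeR called none of the 9 with the deletion (2 in IM and 1 in NCM at an unadjusted p under 0.05, 0 and 1 in DESeq2). The shares of all genes were 9.84% and 16.1% unadjusted, and 4.05% and 7.04% in DESeq2.

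Markers of other antigen-presenting cells were measured beside class II. The 10 B cell markers found in the files summed to 32.6 to 80.2 CPM in IM deleted, 41.0 to 70.1 CPM in IM control, 36.6 to 96.9 CPM in NCM deleted and 29.8 to 103 CPM in NCM control, with 0 to 6 of them without reads in a library. The 12 dendritic cell markers summed to 303 to 607 CPM in IM deleted, 249 to 377 CPM in IM control, 422 to 1332 CPM in NCM deleted and 159 to 451 CPM in NCM control. The highest of these sums, in NCM661, came from Kit with 907 CPM, and Xcr1 had at most 33 reads in any library. edgeR called no gene of either list between the cell types or with the deletion. At an unadjusted p under 0.05 there were at most 1 B cell and 4 dendritic cell markers in a comparison, and DESeq2 called at most 0 and 2. The 4 were found in NCM deleted against NCM control, beside 16.1% of all genes. The 2 were found between the deleted groups, where DESeq2 called 1228 genes in all. Within NCM deleted and within NCM control, the dendritic cell sums ranked the libraries in the same order as the class II sums. In NCM649 and NCM650 these dendritic cell sums were close (422 and 430 CPM), and their order rested on Kit (215 and 223 CPM). Within IM control the order was reversed, and in IM deleted the highest dendritic cell sum, in IM650, stood with the lowest class II sum. Across the groups the IM control libraries had the highest class II sums, with dendritic cell sums within the range of the monocytes. The part of dendritic cell content in these levels was not tested.

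The sums of the 9 alveolar macrophage markers were, like those of class II, lower in IM deleted than in IM control. They came to 713 to 1623 CPM in IM deleted and 1797 to 2010.0 CPM in IM control, without overlap. Chi3l3 was the largest part of these sums, with 355 to 1022 CPM in IM deleted and 1190 to 1292 CPM in IM control. IM649 lay above all IM control libraries for Marco, Siglec5, Krt79, Fabp1 and Pparg. It lay within their range for Car4 and below it for Chi3l3, Ear1 and Itgax. In NCM deleted the sums came to 360.1 to 790 CPM and in NCM control to 623 to 863 CPM. Between the libraries of a group they often went the other way. IM661 and NCM661 had the lowest alveolar sum of their groups with the highest class II sum, and NCM648 the highest with the lowest. In IM control, IM660 was highest in both. With the deletion in IM, 9 of 9 markers had values below 0 (median -0.44) and edgeR called none. There were 2 at an unadjusted p under 0.05, beside 9.84% of all genes, and 0 in DESeq2, beside 4.05%. Chi3l3 was higher in IM in both genotypes, beside 3.22% of all genes between the deleted and 2.81% between the control groups. Ear1 was higher in IM control than in NCM control (adjusted p = 0.0479, edgeR). Pparg was lower in IM in both genotypes, beside 1.35% and 4.67% of all genes. The 7 classical monocyte markers, which share Chi3l3 with this list, summed to 763 to 1997 CPM in IM deleted and 1950.1 to 2268 CPM in IM control, against 172 to 343 CPM in NCM deleted and 266 to 550 CPM in NCM control. The part of either cell type in the class II values was not tested.

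Macrophage and endothelial transcripts moved with the monocyte comparison. The sums of the 12 macrophage markers were lower in NCM deleted than in NCM control without overlap. Of these markers 11 had values below 0, while Mertk averaged 59.2 CPM in NCM deleted and 44.1 CPM in NCM control. The 10 endothelial markers summed to 2543 to 6466 CPM in NCM deleted against 599 to 1834 CPM in NCM control, also without overlap. Between IM deleted (710 to 2453 CPM) and IM control (669 to 2027 CPM) the endothelial sums overlapped, while the macrophage marker sums of IM deleted lay below those of IM control. In that comparison 10 of the 12 macrophage markers had values below 0, and Apoe alone averaged 6490 and 9341 CPM. Mertk was higher in IM deleted without overlap (359 to 385 against 189 to 252 CPM), and Mrc1 averaged 2006 against 1941 CPM. The part of these cell contents in the class II values was not tested.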

How the data were processed

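The authors deposited raw counts of reads per gene, neither normalized nor filtered, per the file contents, in 1 file per library with 26608 gene rows and 5 summary rows. The submitters' processing notes name HTSeq 0.6.0, TopHat2 2.1.1, cutadapt 1.12 and the build GRCm38 (mm10), and per the labels the libraries came from a stranded low-input total RNA kit. Neither the annotation nor the strand setting is stated there. Summary rows, among them reads aligned to several places (4.44 to 9.02%), stayed out of library sizes. Precision rests on 5332600 to 14099509 gene counts and on 3 libraries per group.

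Computations used R 4.3.3, edgeR 4.0.16, limma 3.58.1, DESeq2 1.42.0, Python 3.11.15 and matplotlib 3.10.9. Genes were kept by filterByExpr (minimum count 10), scaled with TMM factors and fitted in edgeR's robust quasi-likelihood model with 4 group means over 12 libraries. Calls used a Benjamini-Hochberg adjusted p under 0.05 over 14254 genes. The procedure was tested on simulated data. Exon lengths and coordinates came from GENCODE M21 on GRCm38 (22424 rows matched), promoters from RefSeq. Sequencing lanes were read from the names of the deposited files.

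All 10 members are named. Pathway genes are named where called, at most 6 per list and comparison by adjusted p, and the 8 most similar genes by correlation of deviations. H2-Ob, H2-Ea-ps, Ctss, B2m and single marker genes were also given outside this rule, chosen after their values were seen. Members and lists were chosen with earlier results of these data known. Of 177 list entries 174 are in the files. Other scalings, filters, DESeq2, covariates, subsets and a replicate block were tried as alternatives.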

Additional observations from a re-analysis of the deposited data

How the results depend on the processing

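The counts of called class II genes changed by more than 1.5 times under 2 settings. With only the compared libraries fitted, 2 genes were called in IM deleted against IM control, and with the non-exonic read share as covariate 0 were called in IM control against NCM control. Leaving out 1 library gave 6 to 7 genes in IM control against NCM control, 5 to 7 in IM deleted against NCM deleted and 0 to 0 in the other 3 comparisons. With a replicate block the counts were 6, 7 and, for the difference of the effects, 0, and H2-DMa lost its call between the control groups (adjusted p = 0.0535). Libraries with the same number deviated together at r = -0.07 to 0.08, so the values do not show a pairing, and whether equal numbers mark the same animal is not given by the labels.

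Signs turned for values that had not passed. In IM, the non-exonic covariate gave 0.85 for H2-Aa, 1.24 for H2-Ab1, 0.82 for H2-Eb1, 0.0595 for H2-DMa and 1.24 for H2-DMb1, when the median of all genes was 0.52. Ciita in IM was -0.00998 with lane as a covariate and -0.48 to 0.38 without 1 library. Ciita in NCM was 0.0687 with the factors of DESeq2, 0.0131 without a filter, 0.0662 in DESeq2, 0.0268 with the compared libraries, 0.29 with the non-exonic covariate, 0.11 with lane and -0.999 to 0.22 without 1 library. H2-DMb1 in NCM was 0.17 with lane and -1.08 to 0.0162 without 1 library. H2-DMb2 was -0.17 with lane in NCM, and between the deleted groups 1.26 with the replicate block and -1.94 to 1.43 without 1 library. The cause was not tested. Over all genes, IM deleted against IM control had 41 calls, 77 without a filter, 373 in DESeq2, 950 with the compared libraries and 0 with either covariate, and NCM had 60, 153, 953, 0, 351 (non-exonic) and 3 (lane).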
